A study of Mus musculus with 23 samples.

Results

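The genes described here set the supply of D-serine and glycine, the co-agonists of the NMDA receptor. They are 10 genes, taken by symbol through their Ensembl identifiers, of 18848 genes in the deposited table, and all 10 were among the 17256 tested, which averaged 10 or more normalised reads. By role they are the serine synthesis enzymes Phgdh, Psat1 and Psph, the serine racemase Srr, the serine carriers Slc7a10 and Slc1a4, the glycine transporters Slc6a9 and Slc6a5, and the mitochondrial enzymes Shmt2 and Gldc.

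The libraries hold polyadenylated RNA of bulk tissue labelled brain, with no region named, taken at postnatal day 17 from male mice of the C57BL/6J strain. The mice were Grin2b C456Y heterozygotes (HT) or wild type (WT). GluN2B, the NMDA receptor subunit made from Grin2b, carries the mutation, and C456Y comes from the series title. There were 6 HT libraries from DCS-treated mice, 6 HT vehicle libraries, 5 WT DCS libraries and 6 WT vehicle libraries. The labels give DCS as an abbreviation alone; it usually stands for D-cycloserine, a partial agonist at the site of the receptor that binds glycine and D-serine, and the labels say nothing of its dose, route or timing. No label ties a library to a mouse of its own, and the p-values therefore rest on a spread between libraries that may be technical. Library totals of normalised reads lay between 32.3 M and 33.5 M, and the step between low values gave an estimated unscaled depth of 25.6 M to 37.4 M reads. Markers of neurons, astrocytes, oligodendrocytes, microglia, endothelium, meninges and choroid plexus, cerebellum and forebrain were above 0 in every library, and hindbrain and spinal cord markers varied as described with Slc6a5.

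NMDA receptors open only when glutamate and a co-agonist, glycine or D-serine, are bound together. Phgdh, Psat1 and Psph convert a glycolytic intermediate into L-serine, largely in astrocytes, and Srr turns L-serine into D-serine. Slc7a10 (Asc-1) exchanges small neutral amino acids, D-serine and glycine among them, and Slc1a4 (ASCT1) carries serine, alanine and cysteine. Slc6a9 (GlyT1), mainly glial, clears glycine from around synapses, and Slc6a5 (GlyT2) loads glycine into the terminals of inhibitory glycinergic neurons of brainstem and spinal cord. Shmt2 interconverts serine and glycine in mitochondria, and Gldc is the decarboxylase of the glycine cleavage system.

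On GRCm38 with the GENCODE M21 annotation, all 10 are protein-coding genes. The serine synthesis genes lie apart from each other, with Phgdh (ENSMUSG00000053398) at chr3:98313170-98339990 on the minus strand, Psat1 (ENSMUSG00000024640) at chr19:15904678-15947337 on the minus strand and Psph (ENSMUSG00000029446) at chr5:129765558-129787449 on the minus strand. Srr (ENSMUSG00000001323) lies at chr11:74906359-74925948 on the minus strand, on the same chromosome as Slc1a4 (ENSMUSG00000020142) at chr11:20302180-20332713 on the minus strand, and Slc7a10 (ENSMUSG00000030495) lies at chr7:35186385-35201114 on the plus strand, on the same chromosome as Slc6a5 (ENSMUSG00000039728) at chr7:49910146-49963856 on the plus strand. Slc6a9 (ENSMUSG00000028542) lies at chr4:117834506-117875198 on the plus strand, Shmt2 (ENSMUSG00000025403) at chr10:127517123-127522444 on the minus strand, and Gldc (ENSMUSG00000024827) at chr19:30098447-30175429 on the minus strand, the chromosome that also holds Psat1.

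Phgdh with Slc7a10 and Slc7a10 with Gldc gave the highest correlations between members across libraries, as described further on. The bases before the start sites of Phgdh, Slc7a10 and Gldc are shown for that reason. Phgdh with Gldc gave a lower r of 0.45. All 10 members had at least 1 start-site window in the RefSeq table for GRCm38.p6, 250 bases before to 50 bases after the start. Windows were searched for CCAAT, on either strand, with matches in capitals below. The motifs were chosen after the sequences had been read. The Phgdh stretch is chr3:98339991-98340219 on the minus strand, cut at base -22 to leave out annotated exon, so that a further CCAAT that crosses the end of the stretch is not shown. The Slc7a10 stretch is chr7:35186135-35186384 on the plus strand, and the Gldc stretch is chr19:30175442-30175691 on the minus strand, both ending at base -1.
Phgdh: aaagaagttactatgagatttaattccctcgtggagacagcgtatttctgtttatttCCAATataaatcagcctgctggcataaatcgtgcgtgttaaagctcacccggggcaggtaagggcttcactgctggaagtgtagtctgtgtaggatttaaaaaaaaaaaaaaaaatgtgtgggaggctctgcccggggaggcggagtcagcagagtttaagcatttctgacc
Slc7a10: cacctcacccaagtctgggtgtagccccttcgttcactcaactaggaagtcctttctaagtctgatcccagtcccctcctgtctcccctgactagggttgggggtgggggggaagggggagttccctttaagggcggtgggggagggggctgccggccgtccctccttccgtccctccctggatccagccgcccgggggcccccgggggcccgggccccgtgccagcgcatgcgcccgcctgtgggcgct
Gldc: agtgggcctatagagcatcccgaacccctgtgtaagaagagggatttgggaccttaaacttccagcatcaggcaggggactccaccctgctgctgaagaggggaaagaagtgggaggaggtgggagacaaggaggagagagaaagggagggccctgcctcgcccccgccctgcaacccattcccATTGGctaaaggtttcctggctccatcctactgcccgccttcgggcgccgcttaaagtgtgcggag
The Gldc match reads ATTGG because the motif lies on the other strand. Slc7a10 held no CCAAT in this window. CCAAT was found in a window of 5 of the 10 members (Phgdh, Psat1, Psph, Slc1a4 and Gldc), and in 41.1% of the 27025 genes in the table. The letters TGATGCAA, or TTGCATCA on the other strand, the core of an element bound by ATF4 in genes that answer to amino acid shortage, were found in 1 member, Slc1a4, and in 1.03% of genes. The Slc1a4 match starts at base -4 and crosses the start site into annotated Slc1a4 exon. The stretch shown, the match with its flanks, is chr11:20332701-20332726 on the minus strand, with the core in capitals.
Slc1a4: cctcctgcgTTGCATCAtctccagcc
A match is a run of letters and not evidence of binding, and a window without one says nothing about the factor.

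All 10 genes were detected in every library. Srr, Psat1 and Phgdh had the highest levels per kb of exon, at 670, 661 and 636 normalised reads per kb averaged over the 23 libraries. Slc6a9 followed at 480, Slc1a4 at 472 and Slc7a10 at 465 reads per kb. Shmt2 stood at 267, Slc6a5 at 141, Gldc at 102 and Psph at 89.9 reads per kb. Neighbours in this order overlapped in range except at 3 steps, where every library had Phgdh above Slc6a9, Slc7a10 above Shmt2, and Shmt2 above Slc6a5. The order depended on the length used: with the longest annotated transcript Psat1 came first, followed by Phgdh and then Srr, and Slc6a5 came last. Exons that lie over other genes make up 30.2% of the Slc6a9 exon bases (B4galt2, Ccdc24 and Gm17114), 1366 of the 4560 bases of Srr (Tsr1 and Smg6), 17.9% of those of Slc7a10 (Lrp3), 10.4% of those of Psph (Cct6a) and 1.03% of those of Shmt2 (Ndufa4l2), all on the opposite strand, and no source used here says whether the counting used strand.

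**Figure D1:**
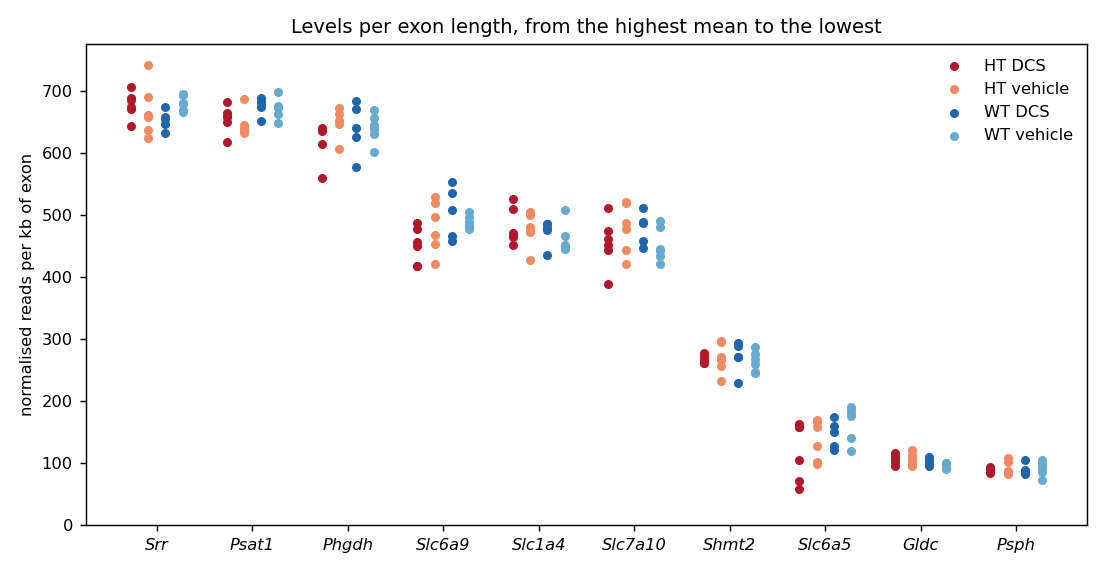
Normalised reads per kb of exon (y axis, linear from 0) of the 10 genes (x axis), 1 point per library, coloured by group. Srr, Psat1 and Phgdh form the top of the order, Gldc and Psph the bottom, and Slc6a5 has the widest spread within groups.

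No member passed the threshold in any comparison. At an adjusted p under 0.05 (limma, Benjamini-Hochberg over 17256 genes), 0 of 10 members were called in HT DCS against WT DCS, where 0% of all genes were called, and likewise in HT vehicle against WT vehicle, HT DCS against HT vehicle, WT DCS against WT vehicle, the interaction of genotype and DCS, genotype over both treatments, and DCS over both genotypes, with 0% of all genes called in each. At an unadjusted p under 0.05 the members counted 1 of 10 in HT DCS against WT DCS (Slc6a9), against 7.55% of all genes, 1 of 10 in HT vehicle against WT vehicle (Gldc), against 4.22%, and 2 of 10 in genotype over both treatments (Psat1 and Slc6a9), against 7.17%. They counted 0 of 10 in the other comparisons, against 2.88% of all genes in WT DCS against WT vehicle, 4.8% in HT DCS against HT vehicle, 4.38% in the interaction and 3.16% in DCS over both genotypes. Groups overlapped for every member in every comparison; the share of all genes whose groups failed to overlap was 0.411% in HT DCS against WT DCS, 0.249% in HT vehicle against WT vehicle, 0.127% in HT DCS against HT vehicle, 0.33% in WT DCS against WT vehicle, 0.0058% in genotype over both treatments and 0% in DCS over both genotypes.

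The size of difference that the data allow is narrow for 9 of the 10 genes. Leaving out Slc6a5, the log2 differences in the 4 comparisons between single groups lay between -0.16 and 0.12, and the 95% intervals of all 9 lay between -0.27 and 0.24. The medians over the 10 members were -0.03 in HT DCS against WT DCS, 0.01 in HT vehicle against WT vehicle, -0.02 in HT DCS against HT vehicle and 0.02 in WT DCS against WT vehicle, and the median over all genes tested was 0.00 in each. These are differences on log2(value + 1), and a p that misses the threshold does not show that levels were equal.

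**Figure D2:**
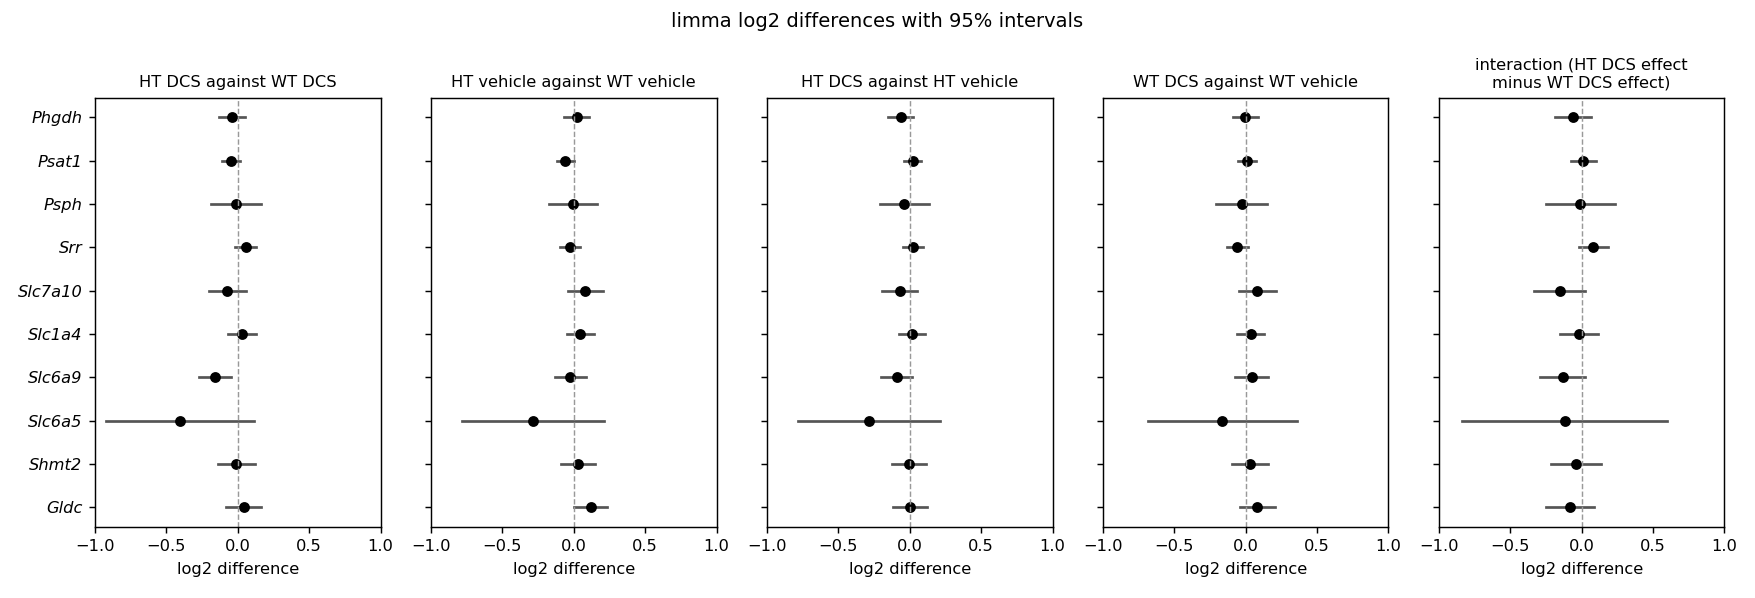
Log2 differences (x axis) with 95% intervals from limma for the 10 genes (rows) in 4 comparisons between groups and in the interaction. The intervals of 9 genes are short and near 0, and those of Slc6a5 are wide.

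None of the 3 serine synthesis enzymes passed the test, and Psat1 had the smallest p of them. Psat1, the aminotransferase that makes phosphoserine, had a lowest, median and highest value of 2625, 2799 and 2900 normalised reads in HT DCS, 2685, 2712 and 2921 in HT vehicle, and 2757, 2862 and 2966 in WT vehicle. The 5 WT DCS libraries had 2930, 2903, 2891, 2868 and 2771 reads. Of the 12 HT libraries, 6 lay below the lowest WT library and the other 6 inside the WT range. Over both treatments Psat1 averaged 2764 ± 88 reads in HT (SD, n = 12) and 2864 ± 63 in WT (SD, n = 11), with 10 of 12 HT libraries below the WT mean. The log2 difference was -0.05 ± 0.02 (SE), with an adjusted p of 0.646 (limma). Psat1 also had one of the smallest spreads: its log2 SD within groups was 0.041, and 3.72% of the 4091 genes within 2-fold of its mean varied less.

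Phgdh, the first and committed enzyme of the pathway, averaged 1542 ± 79 reads in HT DCS and 1611 ± 58 in HT vehicle (SD, n = 6 each). All 6 HT DCS libraries lay below the HT vehicle mean, from 1389 to 1589, yet the groups overlapped because the lowest HT vehicle library had 1504. The log2 difference was -0.06 ± 0.04 (SE, limma adjusted p = 0.973), and it was -0.03 without HT DCS replicate 4, the library with 1389 reads. In WT, Phgdh averaged 1588 ± 104 reads with DCS (n = 5) and 1589 ± 58 with vehicle (n = 6). Psph, the phosphatase that releases serine, was the lowest of the 3 and the most variable: its library values ran from 311 to 464 reads, with group means of 382 in HT DCS, 393 in HT vehicle, 386 in WT DCS and 395 in WT vehicle.

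Srr, which makes D-serine, had 3071, 2880, 2949, 2997 and 2984 reads in the 5 WT DCS libraries, against a lowest, median and highest of 3030, 3096 and 3167 in WT vehicle. All 5 WT DCS libraries lay below the WT vehicle mean, and the groups overlapped through 1 library, WT DCS replicate 1. Srr averaged 2976 ± 70 reads in WT DCS and 3100 ± 55 in WT vehicle (SD, n = 5 and 6), a log2 difference of -0.06 ± 0.04 (SE, limma adjusted p = 1.0). In HT the corresponding means were 3090 ± 97 with DCS and 3047 ± 192 with vehicle (SD, n = 6 each). HT DCS and WT DCS differed by 0.05 ± 0.04 (SE) on the log2 scale, with an adjusted p of 0.744 (limma).

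The carrier Slc7a10 had the most negative interaction estimate of the 10 members. Its means were 960 ± 86 reads in HT DCS and 1008 ± 85 in HT vehicle (SD, n = 6 each), and 1009 ± 54 in WT DCS (n = 5) and 953 ± 58 in WT vehicle (n = 6). Slc7a10 was lower on average with DCS in HT and higher on average with DCS in WT. The test of that difference, the interaction, gave -0.15 ± 0.09 (log2, SE). Its unadjusted p was 0.087 and its adjusted p 0.984 (limma), so it did not pass the threshold. The HT vehicle against WT vehicle difference was 0.08 ± 0.06 and the WT DCS against WT vehicle difference 0.08 ± 0.06 (log2, SE), with adjusted p of 0.999 and 1.0 (limma). Within replicate numbers 1 to 3, a split chosen after seeing the data, the Slc7a10 interaction was -0.21 ± 0.08 (log2, SE). Within numbers 4 to 6 it was -0.07 ± 0.13, and neither passed the threshold. HT DCS against HT vehicle gave -0.138 and -0.005 in these sets, and WT DCS against WT vehicle 0.071 and 0.067. Slc1a4 averaged 1889 ± 114 reads in HT DCS, 1869 ± 108 in HT vehicle, 1852 ± 82 in WT DCS and 1809 ± 96 in WT vehicle, and its libraries ran from 1677 to 2063.

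Slc6a9, the glial glycine transporter, had the smallest unadjusted p of the 10 genes in HT DCS against WT DCS. It had 2499, 2454, 2342, 2143, 2308 and 2149 reads in HT DCS replicates 1 to 6, against 2840, 2606, 2753, 2355 and 2394 in WT DCS replicates 1 to 5. All 6 HT DCS libraries lay below the WT DCS mean, and the groups overlapped because WT DCS replicates 4 and 5 fell inside the HT DCS range. The means were 2316 ± 149 and 2590 ± 214 reads, in HT DCS and WT DCS (SD, n = 6 and 5). The log2 difference was -0.16 ± 0.06 (SE, 95% interval -0.27 to -0.05), with an adjusted p of 0.612 (limma). Without DCS the means were closer, 2471 ± 213 (HT vehicle) and 2508 ± 56 (WT vehicle) reads (SD, n = 6 each), a difference of -0.03 ± 0.05 (log2, SE, limma adjusted p = 0.999). The interaction was -0.13 ± 0.08 (log2, SE, limma adjusted p = 0.984), so a dependence of the genotype difference on DCS was not shown. HT DCS against HT vehicle gave -0.09 ± 0.05, WT DCS against WT vehicle 0.04 ± 0.06, genotype over both treatments -0.09 ± 0.04 and DCS over both genotypes -0.02 ± 0.04 (log2, SE), with adjusted p of 0.973, 1.0, 0.647 and 1.0 (limma). Leaving out 1 library at a time, the Slc6a9 difference ran from 0.01 (without WT DCS replicate 1) to 0.08 (without WT DCS replicate 4) in WT DCS against WT vehicle, and from -0.04 (without HT vehicle replicate 6) to -0.01 (without WT DCS replicate 4) in DCS over both genotypes.

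Replicate numbers 1 to 3 and 4 to 6 did not overlap in range for Slc6a9 in 3 of the 4 groups. Slc6a9 was not alone in this. The same held for Slc7a10 in WT DCS and WT vehicle, and for Slc6a5 in HT DCS and WT vehicle. It also held for Gldc in HT vehicle, Psat1 in WT DCS, and Srr, Slc1a4 and Shmt2 in HT DCS. The share over all genes was not computed, and the split was chosen after seeing the data. With so few libraries on each side, ranges can fail to overlap by chance. Over all genes tested, libraries of different groups had a median correlation of 0.02 within the same set of numbers (99 pairs). Across the sets it was -0.04 (99 pairs), and 11 and 3 pairs had r over 0.1. The split was therefore not shown to be particular to the members. The mean of Slc6a9 was 2432 reads in HT DCS replicates 1 to 3 and 2200 in replicates 4 to 6. The same pair of means was 2645 and 2297 in HT vehicle, 2733 and 2375 in WT DCS, and 2504 and 2513 in WT vehicle. The labels give no meaning to the numbers. Within numbers 1 to 3 the HT DCS against WT DCS difference was -0.17 and within 4 to 6 it was -0.11 (log2), with adjusted p of 0.915 and 0.825 (limma). The HT vehicle against WT vehicle difference was 0.08 within numbers 1 to 3 and -0.13 within 4 to 6. The Slc6a9 interaction was -0.25 within numbers 1 to 3 (limma adjusted p = 0.443) and 0.02 within 4 to 6 (log2).

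Myelin markers moved with Slc6a9 over the 23 libraries together, but not within replicate numbers 1 to 3. In HT DCS against WT DCS all 15 genes of a list of oligodendrocyte and myelin markers were lower on average, with a median log2 difference of -0.24, and 0 of 15 were called, with 11 at an unadjusted p under 0.05 (limma). Over both treatments all 15 were lower in HT, with a median of -0.16 and 12 at an unadjusted p under 0.05 (limma). The summed level of the list ran from 342230 to 534880 reads in HT DCS and from 467900 to 555090 in WT DCS, and from 411510 to 524200 in HT vehicle and from 480830 to 551610 in WT vehicle. As deviations from group means, Slc6a9 and the mean of the myelin list had a Pearson r of 0.72 (n = 23, permutation within groups, adjusted p = 0.0103 over 90 relations) and a Spearman rho of 0.74 (permutation, adjusted p = 0.0099). Pearson's r was 0.80 without the 2 libraries farthest from the median of the list. Within replicate numbers r was -0.04 for 1 to 3 (n = 12) and 0.59 for 4 to 6 (n = 11), so the relation did not hold in the first set. In each group the mean log2 myelin level was lower in every library of numbers 4 to 6 than in every library of 1 to 3. In HT DCS it was 12.48 to 12.76 against 12.92 to 13.13. The permutation did not keep these sets apart, so its p cannot separate a step between them from a relation between single libraries. Mag, a myelin adhesion protein, was the gene whose deviations were most like those of Slc6a9 (r = 0.82, as a description), and it averaged 13356 ± 1362 reads in HT DCS, against 15696 ± 869 in WT DCS. The part of myelin content in the Slc6a9 difference was not tested, and in bulk tissue fewer cells of a type and less RNA per cell cannot be told apart.

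Slc6a5, the neuronal glycine transporter, varied most of the 10 members. It had 1133, 1135, 1175, 750, 421 and 507 reads in HT DCS replicates 1 to 6, 1193, 1135, 708, 920, 1214 and 733 in HT vehicle, 919, 1152, 872, 1081 and 1254 in WT DCS, and 1264, 862, 1003, 1366, 1336 and 1291 in WT vehicle. HT DCS replicates 5 and 6 lay below every other library, while HT DCS replicates 1 to 3 lay inside the range of each other group. Its log2 SD within groups was 0.415, against a median of 0.12 over all genes tested, and 99.7% of the 5147 genes within 2-fold of its mean varied less.

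The means of Slc6a5 were 853 ± 340 reads in HT DCS, against 1056 ± 159 in WT DCS (SD, n = 6 and 5), a log2 difference of -0.41 ± 0.25 (SE, 95% interval -0.93 to 0.12, limma adjusted p = 0.727). HT vehicle averaged 984 ± 229 reads against 1187 ± 205 for WT vehicle (SD, n = 6 each), a log2 difference of -0.29 ± 0.24 (SE, limma adjusted p = 0.999). Both genotype differences pointed the same way, and genotype over both treatments gave -0.35 ± 0.17 (log2, SE, 95% interval -0.71 to 0.01, limma adjusted p = 0.716). HT DCS against HT vehicle gave -0.28 ± 0.24, WT DCS against WT vehicle -0.16 ± 0.25, DCS over both genotypes -0.22 ± 0.17 and the interaction -0.12 ± 0.34 (log2, SE), with adjusted p of 0.974, 1.0, 1.0 and 0.990 (limma). Without HT DCS replicates 5 and 6, the Slc6a5 difference was -0.02 in HT DCS against WT DCS, -0.15 in genotype over both treatments and 0.10 in HT DCS against HT vehicle (log2). Within numbers 1 to 3 the HT DCS against WT DCS difference was 0.24 and within 4 to 6 it was -1.10 (log2), with adjusted p of 0.97 and 0.514 (limma).

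**Figure D3:**
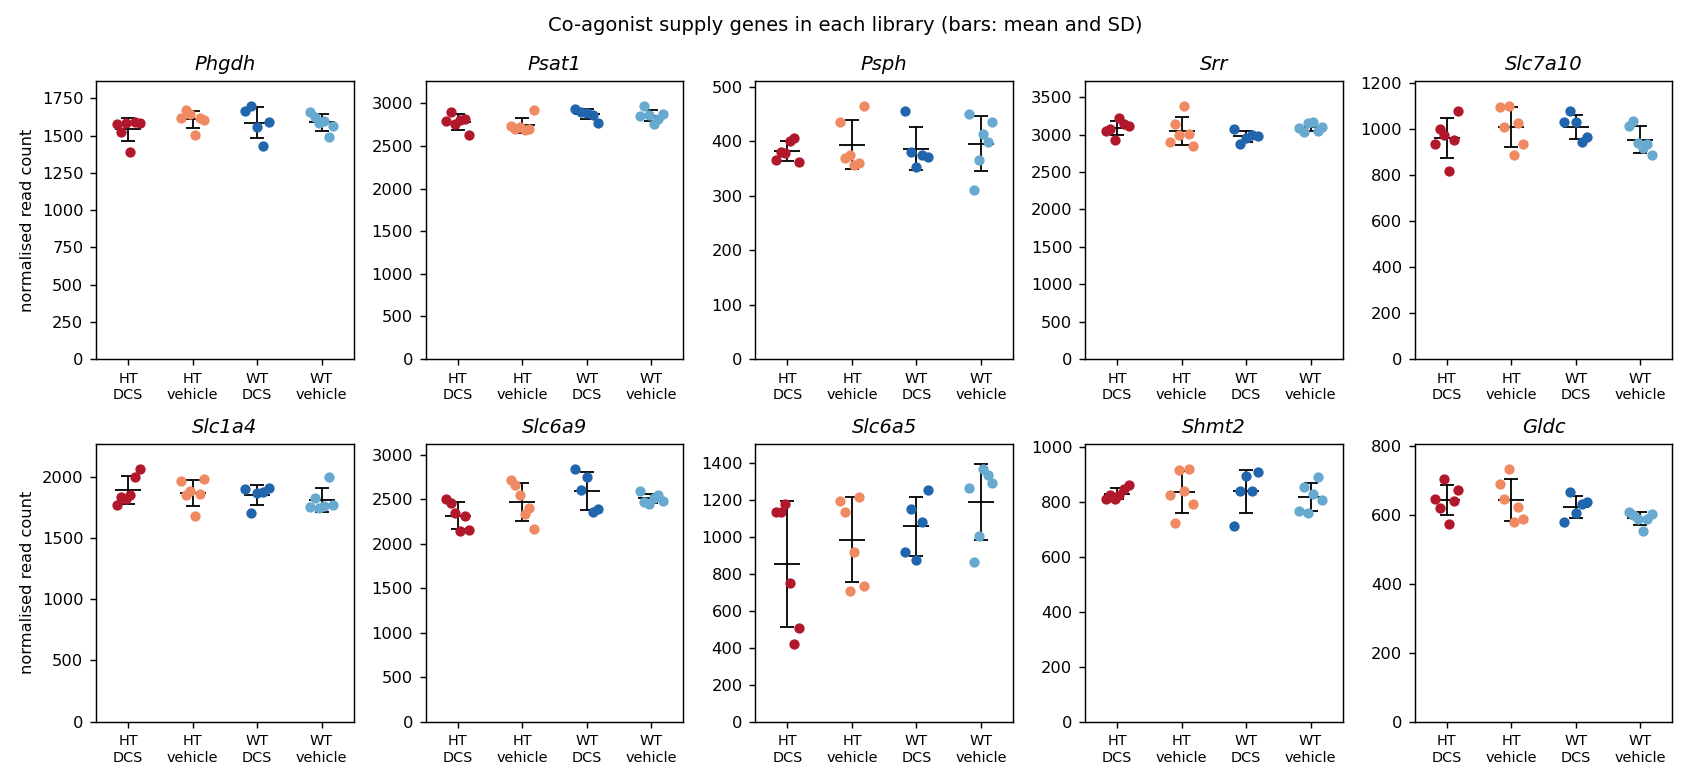
Normalised read count (y axis, linear from 0) of each of the 10 genes by group (x axis), with 1 point per library and the mean and SD as bars. Slc6a5 in HT DCS splits into libraries at 1133 to 1175 and libraries at 421 to 750, and groups of the other genes overlap.

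Markers of hindbrain and spinal cord moved with Slc6a5. The list held 28 genes, mostly Hox genes and serotonin or noradrenaline neuron genes, of which 23 were in the table and 18 were tested. Its mean log2 level was 4.88 ± 0.71 in HT DCS, 5.06 ± 0.38 in HT vehicle, 5.27 ± 0.22 in WT DCS and 5.42 ± 0.21 in WT vehicle (SD over libraries). The lowest libraries were HT DCS replicates 5 and 6, at 3.81 and 4.17, which also had the lowest Slc6a5. In HT DCS against WT DCS 16 of the 18 markers were lower on average, with a median log2 difference of -0.37, and over both treatments 14 of 18 were lower in HT, with a median of -0.32; 0 were called in either, with 4 and 5 at an unadjusted p under 0.05 (limma). The summed level of the list ran from 667 to 1156 reads in HT DCS, 875 to 1212 in HT vehicle, 1011 to 1175 in WT DCS and 1010 to 1231 in WT vehicle, and 2 of the 18 genes, Hoxa5 and Hoxb2, were at 0 in at least 1 HT DCS library.

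Deviations of Slc6a5 from its group means followed those of the hindbrain list, with a Pearson r of 0.86 (n = 23, permutation within groups, p = 0.00018, adjusted p = 0.0103 over 90 relations) and a Spearman rho of 0.82 (permutation, adjusted p = 0.0099). Without HT DCS replicates 5 and 6, the libraries farthest from the median of the list, r was 0.76. It was 0.85 within replicate numbers 1 to 3 (n = 12) and 0.91 within 4 to 6 (n = 11). The genes most like Slc6a5 across the 23 libraries were Mab21l2 (r = 0.88), Glra1, which encodes the adult glycine receptor alpha subunit (r = 0.86), Hoxb5 (r = 0.82), and the neurofilament genes Nefh (r = 0.80) and Nefm (r = 0.79), where r is a description. Hoxb5 belongs to the marker list. Glra1 averaged 174 ± 54 reads in HT DCS, against 214 ± 18 in WT DCS (SD, n = 6 and 5), and its 3 lowest libraries were HT vehicle replicate 6 with 106 reads and HT DCS replicates 6 and 5 with 108 and 118. The part that hindbrain tissue in a sample has in the Slc6a5 differences was not tested.

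**Figure D4:**
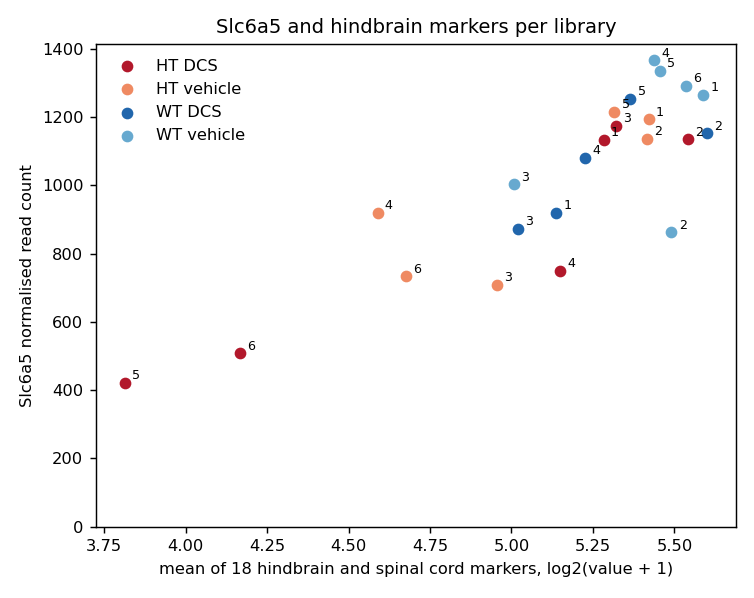
Slc6a5 normalised read count (y axis, linear from 0) against the mean log2 level of 18 hindbrain and spinal cord markers (x axis), 1 point per library with its replicate number, coloured by group. HT DCS replicates 5 and 6 lie at the lower left, apart from the other 21 libraries.

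Of the mitochondrial enzymes, Gldc had the larger difference between genotypes. It had a lowest, median and highest of 578, 634 and 732 reads in HT vehicle, against 551, 592 and 607 in WT vehicle. The HT vehicle libraries reached higher, but their lowest 2 fell inside the WT vehicle range. The Gldc mean was 642 ± 60 reads in HT vehicle, against 589 ± 20 in WT vehicle (SD, n = 6 each), a log2 difference of 0.12 ± 0.06 (SE, 95% interval 0.00 to 0.24, limma adjusted p = 0.999). Over both treatments the difference was 0.08 ± 0.04 (log2, SE, limma adjusted p = 0.716), and with DCS the means were 642 ± 44 in HT and 623 ± 32 in WT. Both Gldc differences were larger within replicate numbers 1 to 3 than within 4 to 6. HT vehicle against WT vehicle gave 0.20 and 0.04 (log2), and genotype over both treatments gave 0.15 and 0.01. In HT vehicle against WT vehicle, the contrast of the larger Gldc difference, markers of several cell types were also higher on average: 15 of 15 for microglia (median log2 difference 0.12), 14 of 15 for meninges and choroid plexus (0.16), 14 of 15 for endothelium (0.07) and 15 of 20 for astrocytes (0.04), with 0 called. At an unadjusted p under 0.05 (limma) they counted 0, 3, 1 and 1. Lower on average were 15 of 15 oligodendrocyte and myelin markers (median -0.10) and 14 of 18 hindbrain and spinal cord markers (-0.29). Neuron, cerebellum and forebrain markers were mixed, with 7 of 15, 9 of 16 and 8 of 15 higher. The summed level of the microglia list ran from 5062 to 8005 reads in HT vehicle and from 4678 to 8123 in WT vehicle. For the meningeal and choroid plexus list it ran from 11698 to 17017 reads in HT vehicle and from 11683 to 14189 in WT vehicle. For the endothelial list it ran from 12235 to 13798 reads in HT vehicle and from 11955 to 12790 in WT vehicle, and for the astrocyte list from 221270 to 250880 in HT vehicle and from 224010 to 241810 in WT vehicle. All 4 ranges overlap between the groups, and no marker of these lists was at 0 in these libraries. The part of cell type content in the Gldc difference was not tested. Shmt2 averaged 831 ± 20 reads in HT DCS, 836 ± 75 in HT vehicle, 839 ± 78 in WT DCS and 819 ± 50 in WT vehicle.

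Across libraries, Phgdh and Slc7a10 had the highest correlation of the 45 pairs of members (r = 0.70, n = 23, permutation within groups, adjusted p = 0.0198), with a Spearman rho of 0.59 (permutation, adjusted p = 0.189). Without the 2 libraries farthest on Phgdh r was 0.58, and it was 0.15 within replicate numbers 1 to 3 and 0.69 within 4 to 6. In each group both genes averaged lower in numbers 4 to 6 than in 1 to 3. The permutation did not keep these sets apart, so its p cannot separate a step between them from a relation between single libraries. Slc7a10 and Gldc had a Pearson r of 0.68 (adjusted p = 0.0589 by permutation) and a rho of 0.58 (adjusted p = 0.308 by permutation). The correlation of Phgdh with the next enzyme of its own pathway, Psat1, was 0.04.

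Of the 90 relations between a member and a marker list, 11 had an adjusted p under 0.05 by Pearson's r and 6 by Spearman's rho, both by permutation within groups. Gldc and the astrocyte list gave r = 0.66 and rho = 0.67 (adjusted p = 0.0356 and 0.034 by permutation), with r = 0.68 without the 2 farthest libraries. Slc7a10 and the astrocyte list gave r = 0.61 and rho = 0.48 (adjusted p = 0.0426 and 0.167 by permutation), with r = 0.45 without the 2 farthest. The gene most like Slc7a10 was Aqp4, the water channel of astrocyte endfeet and a member of that list (r = 0.88, as a description), followed by the urea transporter gene Slc14a1 (r = 0.81). The microglia list was correlated with Gldc (r = 0.65 and rho = 0.66, adjusted p = 0.03 and 0.034 by permutation), with Phgdh (r = 0.66 and rho = 0.65, adjusted p = 0.0356 and 0.034 by permutation) and with Slc7a10 (r = 0.60 and rho = 0.57, adjusted p = 0.0368 and 0.0846 by permutation). Gldc was also correlated with the meningeal and choroid plexus list (r = 0.61 and rho = 0.69, adjusted p = 0.0368 and 0.034 by permutation), its highest rho with any list, and negatively with the forebrain list (r = -0.57 and rho = -0.59, adjusted p = 0.0368 and 0.0836 by permutation). Phgdh and the endothelial list gave r = 0.63 and rho = 0.52 (adjusted p = 0.0368 and 0.129 by permutation), with r = 0.48 without the 2 farthest libraries. Srr had a negative relation to the meningeal and choroid plexus list by Pearson's r alone (r = -0.56 and rho = -0.57, adjusted p = 0.0401 and 0.0846 by permutation), and its nearest gene was Sv2b, a synaptic vesicle protein (r = 0.80, as a description). The largest r of Psat1 with any of the 9 lists was 0.20, and that of Psph was 0.27, both with the forebrain list.

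**Figure D5:**
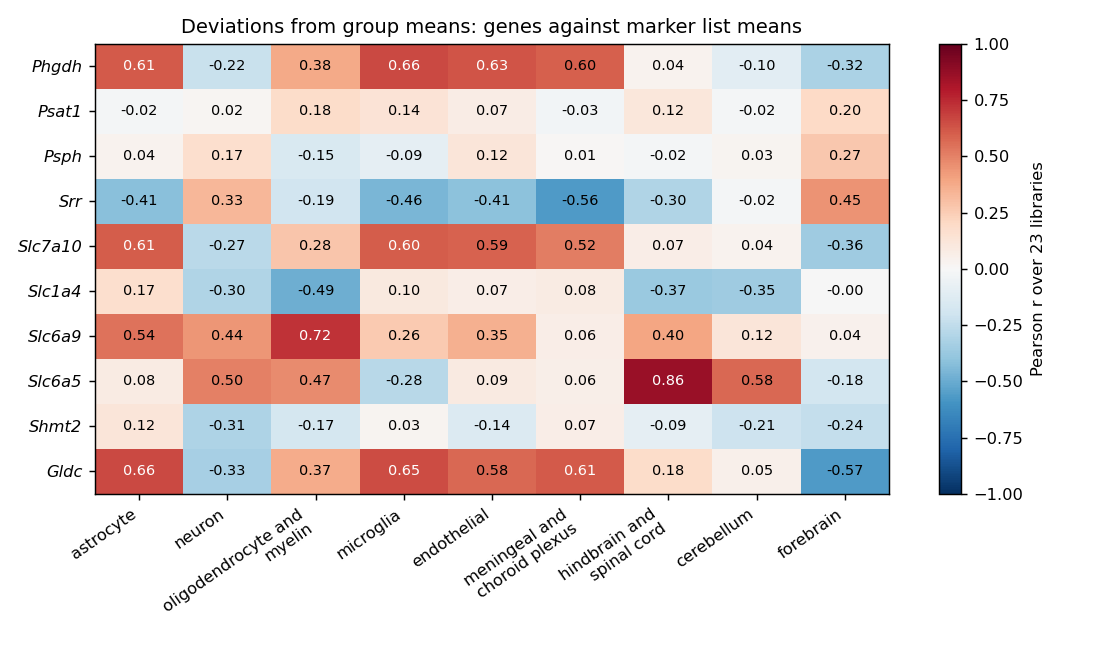
Pearson r over 23 libraries (colour and number) between deviations of each gene from its group means (rows) and those of the mean of each of 9 marker lists (columns). Slc6a5 with hindbrain and spinal cord (0.86) and Slc6a9 with oligodendrocyte and myelin (0.72) are the highest values.

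Other genes of the same pathways were read from 6 lists, and 0 genes of any list were called in any of the 7 comparisons, as for all genes tested (0%). In the list of serine synthesis and folate one-carbon genes, 8 of 21 were higher and 13 lower in HT over both treatments, with a median log2 difference of -0.02 against 0.00 over all genes. The D-serine oxidase Dao is in the list of glycine cleavage and breakdown genes, of which 16 of 21 were measured, with 6 higher and 10 lower in HT over both treatments and a median of -0.03. It averaged 112 ± 22 reads in HT DCS, 143 ± 10 in HT vehicle, 130 ± 19 in WT DCS and 112 ± 18 in WT vehicle (SD, n = 6, 6, 5 and 6). Its interaction was -0.58 ± 0.18 (log2, SE), with an unadjusted p of 0.00275 in limma and an adjusted p of 0.984 (limma). Cth, which cleaves cystathionine, averaged 70.5 ± 14.1 reads with DCS and 95.8 ± 16.2 with vehicle over both genotypes, a log2 difference of -0.45 ± 0.11 (SE, limma adjusted p = 1.0).

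Of the other serine and glycine carriers, 13 of 18 were higher and 5 lower in HT over both treatments, with a median of 0.02. Slc32a1, which loads GABA and glycine into synaptic vesicles, averaged 4737 ± 177 reads in HT (n = 12) and 5045 ± 181 in WT (n = 11), a log2 difference of -0.09 ± 0.02 (SE, limma adjusted p = 0.338). Of 9 tested genes for glycine receptors, their anchors and glycine-binding NMDA subunits, 3 were higher and 6 lower in HT, with a median of -0.02. Glra1 averaged 186 ± 54 reads in HT and 227 ± 22 in WT, a difference of -0.34 ± 0.14 (log2, SE, limma adjusted p = 0.646). In the list of ATF4 targets and amino acid response genes, 12 of 27 were higher and 15 lower in HT, with a median of -0.01, and Slc7a5, a large neutral amino acid carrier, averaged 2983 ± 209 reads in HT and 2728 ± 168 in WT (log2 difference 0.13 ± 0.04 SE, limma adjusted p = 0.505). Of 8 partner proteins of serine racemase, 2 were higher and 6 lower in HT over both treatments, with a median of -0.01.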

How the data were processed

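Stranded mRNA libraries from 23 mouse brain samples were analysed, grouped by the genotype and treatment in the labels. The values in the table that the authors deposited are a signal: decimal read counts, all 0 or above, that had been scaled to similar library totals. The build is GRCm38, and DESeq2 1.26.0, Salmon 1.1.0 and R 3.6.2 are named, per the submitters' processing notes, which give no step for any of them. After such scaling a change in total RNA would not show. Between 56.6% and 78.9% of low values lay within 0.15 of a whole multiple of 1 read, so whole reads were not recovered and no count test was used.

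Values were tested as log2(value + 1) with limma 3.58.1 in R 4.3.3 on the 17256 genes whose mean was at least 10. The 23 libraries were fitted together with a coefficient for each group, variances were moderated (eBayes with the trend and robust options), and p-values were adjusted by Benjamini-Hochberg, with a threshold of 0.05. Tests are two-sided, and the procedure was tested on simulated data. The added 1 shrinks the fold of genes with few reads. Correlations used deviations from group means, with 100000 permutations of libraries within groups. Symbols came from a table of identifiers, with 16 identifiers unmatched.

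The 10 members and all lists were chosen with earlier results of these data known. Named genes are the members, the 2 genes of a pathway list with the smallest unadjusted p in a comparison (not all are printed), and the 5 genes most like each member, leaving out predicted gene models. Alternatives covered filters, pseudocounts, normalisation, trend, the groups fitted, a replicate block and leaving out libraries; splits by replicate number were chosen after seeing the data. The main fit did not take replicate numbers as a pairing of the libraries. A block by number was fitted as an alternative only, and the labels do not say whether same-numbered libraries belong together.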

Additional observations from a re-analysis of the deposited data

Results flagged for a closer look

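In 5 of the 40 groups of library values examined for the 10 genes, the highest or lowest library stood farther from its neighbour than Dixon's 95% limit allows, where chance gives about 2 in 40, or 1 in 20. Phgdh was low in HT DCS replicate 4, with 1389 normalised reads. Psat1 was high in HT vehicle replicate 6, with 2921 reads. Slc1a4 was low in WT DCS replicate 2, with 1707 reads, and high in WT vehicle replicate 5, with 1995 reads. Gldc was low in WT vehicle replicate 4, with 551 reads. The 5 are in 5 different libraries. The low Slc6a5 values of HT DCS replicates 5 and 6 stand together and so passed this limit.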

How the results depend on the processing

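No member was called under any of the 36 alternatives in any comparison, and the smallest adjusted p of a member was 0.184 (limma), for Slc6a9 in HT DCS against WT DCS with a replicate block by description number. Of the 24 member differences examined, 15 kept their direction throughout. Slc6a5 was 0.236 in HT DCS against WT DCS, 0.218 in HT DCS against HT vehicle, 0.299 in the interaction, 0.087 in genotype over both treatments and 0.068 in DCS over both genotypes within numbers 1 to 3, where Slc6a9 was 0.079 in HT vehicle against WT vehicle and 0.002 in DCS over both genotypes. Within numbers 4 to 6 Slc6a9 was -0.081 in WT DCS against WT vehicle and 0.02 in the interaction. The same differences were 0.126 and -0.247 within numbers 1 to 3. Without HT DCS replicates 5 and 6, Slc6a5 was 0.103 in HT DCS against HT vehicle and 0.265 in the interaction. Leaving out 1 library at a time, the Slc6a5 interaction ran from -0.235 to 0.061 and was positive without HT DCS replicate 5 or 6, and Slc6a9 in HT vehicle against WT vehicle ran from -0.055 to 0.012, positive without HT vehicle replicate 6. Without HT DCS replicate 5, Slc6a5 was -0.224 in HT DCS against WT DCS, -0.102 in HT DCS against HT vehicle and -0.132 in DCS over both genotypes, and without WT DCS replicate 3 or WT vehicle replicate 2 it was -0.097 or -0.251 in WT DCS against WT vehicle. The causes were not tested.

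The count of genes called, 0 with the settings of the report, was 4 in genotype over both treatments with numbers 1 to 3 against 4 to 6 as a covariate, 2 with quantile normalisation, and 6 with the replicate block by either title or description numbers. Within numbers 4 to 6 it was 1 (Eif4ebp3) in HT DCS against WT DCS, WT DCS against WT vehicle, the interaction, genotype over both treatments and DCS over both genotypes. Leaving out 1 library at a time it ran from 0 to 1 in HT DCS against WT DCS (Syt2 without HT vehicle replicate 6), HT DCS against HT vehicle (Ehd1 without HT DCS replicate 4 or HT vehicle replicate 1) and genotype over both treatments (Syt2 without HT DCS replicate 2 or HT vehicle replicate 6). Same-numbered libraries had a median correlation of 0.01 over 33 pairs, and 7 of 23 libraries correlated best with their own number. Of the same-numbered pairs 5 had r over 0.1, with a highest of 0.3. Of 165 pairs with other numbers 9 did, with a highest of 0.15. No chance level was computed for these values. The main fit used no block, and a block by number was fitted as an alternative only. Without a chance level, the correlations do not show whether same-numbered libraries are pairs. With the block by title numbers, Slc6a9 was -0.139 and Slc6a5 -0.346 in HT DCS against WT DCS. Count tests were not run because the table holds no whole counts.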
